A study of Mus musculus with 2 samples.

Results

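The D-type cyclins, the kinases they bind, the CDK inhibitors that oppose them and the retinoblastoma gene were examined as 1 set of 9 genes in quiescent and activated satellite cells, the stem cells of skeletal muscle. The 9 genes, Ccnd1, Ccnd2, Ccnd3, Cdk4, Cdk6, Cdkn1a, Cdkn1b, Cdkn2c and Rb1, were taken by symbol from the 32285 features of the count matrices, and each symbol was found in both libraries. The QSC library held satellite cells sorted from uninjured tibialis anterior (TA) muscle. The ASC library held satellite cells sorted from TA muscle on day 1.5 after injection of cardiotoxin (CTX), which destroys muscle fibres. All animals were Pax7 CreERT2/+ ;Rosa26 mTmG/+ mice, 8 weeks old, in which a Cre recombinase driven by the satellite cell gene Pax7 marks cells through a fluorescent reporter. The cells of each library were pooled from several mice. With 1 library per group, the group and the library cannot be told apart, differences could not be checked against replicates, and p-values were not computed.

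Quiescent cells enter the cell cycle through the G1 phase. D-type cyclins (Ccnd1, Ccnd2, Ccnd3) accumulate in response to growth signals and activate CDK4 and CDK6, which phosphorylate the retinoblastoma protein and so release the E2F factors that switch on DNA replication genes. The INK4 protein p18 (Cdkn2c) blocks CDK4 and CDK6 directly, whereas p21 (Cdkn1a) and p27 (Cdkn1b) act mainly on CDK2 complexes. In muscle, p27 is associated with quiescent satellite cells, and p21, p57 (Cdkn1c), cyclin D3 and the retinoblastoma protein are known for their part in the cell cycle exit of differentiating myoblasts, which express Myog.

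The counts are unique molecular identifiers (UMIs), each marking 1 captured transcript end, so that levels of different genes need no division by transcript length, although the ends of some genes are captured better than others. Barcodes, the tags of single droplets, were kept with at least 500 genes and at most 10% mitochondrial UMIs. This left 516 QSC barcodes with 1162091 UMIs and 1468 ASC barcodes with 8895815 UMIs, of which 2 and 3 carried a barcode sequence found in both libraries. Kept barcodes were sorted by marker genes that include none of the 9. Fibre-rich barcodes took at least 5% of their UMIs from 13 genes of mature muscle fibres and made up 104 of 516 QSC and 956 of 1468 ASC barcodes. Non-muscle barcodes, with at least 1% from 30 immune, stromal, endothelial, mural and glial genes, numbered 39 and 93. The remaining barcodes, called fibre-poor muscle, numbered 373 (QSC) and 419 (ASC). All 10 satellite lineage markers were detected in both, at 0.652% and 0.374% of UMIs. The fibre-poor barcodes still took 1.90% and 2.13% of their UMIs from fibre genes, a level also seen in the non-muscle barcodes (2.26% and 2.75%). The ASC fibre-poor barcodes were divided into 80 cycling barcodes (at least 0.3% and at least 3 UMIs from 28 replication and mitosis genes), 78 Myog-high barcodes (not cycling, at least 0.05% and at least 2 UMIs from Myog) and 261 Myog-low barcodes. These are ranges of a marker share and not cell types, and 54 of the 419 barcodes lay within 20% of the cycling limit and 7 of 339 within 20% of the Myog limit. Depth differed widely, with a median of 2222 UMIs in QSC fibre-poor barcodes and of 5366, 11245 and 22423.5 UMIs in the Myog-low, Myog-high and cycling ASC barcodes. The median mitochondrial share was 4.88% in QSC and 2.29% in ASC fibre-poor barcodes, and its part in the differences between the libraries was not tested beyond the stricter limits given with the results. Only 1 QSC barcode was cycling and 1 was Myog-high.

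The 9 genes lie on 7 chromosomes in the GRCm38 assembly (GENCODE M21). Ccnd1 is at chr7:144929931-144939925, Ccnd2 at chr6:127125162-127152193, Ccnd3 at chr17:47505051-47599691, Cdk4 at chr10:127063534-127067920 and Cdk6 at chr5:3341485-3531008. Cdkn1a is at chr17:29090976-29100727, Cdkn1b at chr6:134920401-134925513, Cdkn2c at chr4:109660876-109667189 and Rb1 at chr14:73183673-73325822. Ccnd1, Ccnd2, Cdkn2c and Rb1 are on the minus strand and the others on the plus strand. Counts of several are less certain, because the handling of strand is not given in the sources used here and a counted gene overlaps them on the opposite strand: LTO1 for Ccnd1, Bysl for Ccnd3, Tspan31 for Cdk4, Rcbtb2 and Lpar6 for Rb1, and antisense genes for Ccnd2 and Cdk6. Rb1 also overlaps a counted gene, Gm17233, on its own strand, which the handling of strand cannot separate. Cdkn1b and Cdkn2c overlap no annotated gene. A processed pseudogene of Ccnd3 (96.3% identical over 881 bases) and 1 of Cdk4 (90.5% over 264 bases) are annotated but not among the counted features, as are 4 genes similar to Cdk6 (90.1% to 92.3% over 202 to 388 bases).

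Promoter sequences from RefSeq were at hand for 6 of the 9 genes. The 250 bases before the transcription start are shown for Cdk4 and Cdk6, the kinases with higher levels in the ASC library, and for Cdkn1a, the most abundant of the 9 in the QSC library. Capitals mark each CANNTG, the E-box bound by MyoD-family and Myc-family factors. The motif is its own reverse complement, so 1 search covers both strands, and CACGTG is 1 form of it. The positions on GRCm38.p6, all on the plus strand, are chr10:127063285-127063534 for Cdk4, chr5:3343643-3343892 for Cdk6, and chr17:29090729-29090978 and chr17:29093519-29093768 for the first and second start of Cdkn1a. The Cdk6 entry starts 2408 bases inside the GENCODE gene.
Cdk4: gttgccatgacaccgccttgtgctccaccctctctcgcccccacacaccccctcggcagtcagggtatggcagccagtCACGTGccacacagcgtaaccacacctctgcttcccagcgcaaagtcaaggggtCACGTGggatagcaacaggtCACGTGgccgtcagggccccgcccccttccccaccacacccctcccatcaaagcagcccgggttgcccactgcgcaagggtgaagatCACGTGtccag
Cdk6: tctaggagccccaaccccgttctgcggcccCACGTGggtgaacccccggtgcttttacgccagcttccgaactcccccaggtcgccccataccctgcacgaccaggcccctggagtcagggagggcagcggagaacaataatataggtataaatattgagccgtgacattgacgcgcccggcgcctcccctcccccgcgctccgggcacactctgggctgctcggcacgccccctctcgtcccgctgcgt
Cdkn1a, first start: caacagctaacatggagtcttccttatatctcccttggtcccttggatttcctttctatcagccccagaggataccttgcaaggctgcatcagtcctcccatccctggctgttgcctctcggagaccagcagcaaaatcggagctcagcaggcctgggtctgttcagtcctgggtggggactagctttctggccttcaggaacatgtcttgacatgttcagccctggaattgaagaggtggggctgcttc
Cdkn1a, second start: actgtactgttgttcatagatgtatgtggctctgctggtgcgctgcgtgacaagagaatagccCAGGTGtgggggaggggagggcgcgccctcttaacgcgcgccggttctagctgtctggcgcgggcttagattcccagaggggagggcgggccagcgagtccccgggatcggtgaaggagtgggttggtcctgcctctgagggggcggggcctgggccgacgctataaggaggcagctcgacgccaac
The Cdk4 promoter held 4 copies of CACGTG and the Cdk6 promoter 1. Among 32817 promoters of the same length, 6.02% held at least 1 CACGTG and 7 promoters (0.0213%), that of Cdk4 included, held 4 or more. The second Cdkn1a promoter held 1 CAGGTG, and the first held no CANNTG, a motif present in 66.2% of all promoters. None was found in the promoter windows of Ccnd3, Cdkn1b and Cdkn2c. These matches describe the letters only.

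Which of the 9 genes differ between quiescent and activated cells was asked in fibre-poor muscle barcodes. In the ASC library, Ccnd1, Cdk4 and Cdk6 were at least 2-fold higher, and Cdkn1a and Cdkn1b were at least 2-fold lower. Ccnd3, the D-type cyclin with the highest level in QSCs, had nearly the same level in both. A gene was called higher or lower where its level, in UMIs per 1000000 UMIs of the class (CPM), differed at least 2-fold and where the exact 95% interval of the ratio, which covers counting error only, excluded no change. The 3 of 9 genes called higher and the 2 called lower compare with 15.2% and 23.4% of the 9306 genes with a mean of at least 5 CPM, so the number called lower is close to the background. Ccnd2 was below that mean.

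Among the D-type cyclins, Ccnd1 stood at 79.4 CPM (68 UMIs, interval 61.6 to 101) in QSC and at 267 CPM (1401 UMIs, 253 to 281) in ASC fibre-poor barcodes. The ASC level was 3.36-fold higher (log2 ratio 1.75, interval 1.40 to 2.12). The single cycling and the single Myog-high QSC barcode held 4 Ccnd1 UMIs each. In Myog-low barcodes alone, which leaves out these and the ASC barcodes past the cycling and Myog limits, Ccnd1 stood at 70.8 CPM in QSCs and 246 CPM in ASCs (log2 ratio 1.80, 1.41 to 2.21). The ASC Myog-low class still had 1392 CPM of cycle markers, against 222 CPM in QSCs. Its 54 barcodes with 0.15% to 0.3% of UMIs from cycle markers held 420 Ccnd1 UMIs. In the 158 below 0.05% Ccnd1 stood at 110 CPM (89.7 to 134), above the levels of QSC fibre-poor and QSC Myog-low barcodes. Its interval overlapped both of theirs (61.6 to 101 and 54.0 to 91.1). Overlap does not show that the levels are equal, and no ratio was computed for this range. Over all fibre-poor barcodes Ccnd3 stood at 202 CPM (173 UMIs) in QSCs and 200 CPM (1050 UMIs) in ASCs, with a log2 ratio of -0.01 (-0.25 to 0.23). The near equality depended on the make-up of the ASC class: in Myog-low barcodes alone Ccnd3 stood at 203 CPM in QSCs and 149 CPM in ASCs (log2 ratio -0.44, -0.71 to -0.17, short of the 2-fold mark). Ccnd2 was scarce, with 4 UMIs in the QSC and 19 in the ASC fibre-poor barcodes, and its ratio could not be told from no change at this depth (-0.37, -1.96 to 1.65).

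Both kinases were higher in the ASC library. Cdk4 rested on 126 and 2204 UMIs, at 147 CPM (122 to 175) and 420 CPM (402 to 437), a log2 ratio of 1.51 (1.25 to 1.78). Cdk6 had the largest ratio of the 9, from 15.2 CPM (13 UMIs in 13 barcodes) to 96.9 CPM (509 UMIs in 130 barcodes), a log2 ratio of 2.68 (1.89 to 3.59). The wide interval of Cdk6 reflects the few QSC counts. Cdk4 remained the more abundant kinase in both libraries, and the ratio of Cdk6 to Cdk4 UMIs was 0.103 (0.0535 to 0.183) in the QSC and 0.231 (0.209 to 0.254) in the ASC library.

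Of the 3 inhibitors, Cdkn1a and Cdkn1b were called lower in the ASC library. Cdkn1a, which encodes p21, was the most abundant of the 9 genes in QSCs, with 618 CPM (567 to 673), against 254 CPM (241 to 269) in ASCs, a log2 ratio of -1.28 (-1.43 to -1.13). Cdkn1b, which encodes p27, had the lowest ratio of the 9 genes, with 79.4 CPM (68 UMIs) in QSC and 13.9 CPM (73 UMIs) in ASC barcodes, a log2 ratio of -2.51 (-3.01 to -2.02). Its ASC level overlapped that of fibre-rich ASC barcodes (12.2 CPM, 8.65 to 16.8). Cdkn2c, which encodes p18, had 82.9 CPM (71 UMIs) in QSCs and 42.4 CPM (223 UMIs) in ASCs. Its log2 ratio of -0.96 (-1.36 to -0.56) missed the 2-fold mark, and in Myog-low barcodes alone it passed it (-1.22, -1.69 to -0.75). In that narrower comparison, added after the values were seen, 3 of the 9 genes were called higher and 3 lower, beside 12.5% and 22.2% of 9212 genes. Rb1, the substrate of the kinases, was low in both libraries, at 14.0 CPM (12 UMIs) and 18.1 CPM (95 UMIs), and its ratio of 0.37 had an interval (-0.50 to 1.37) that included no change.

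Summed over genes, the 3 inhibitors had 2.73 UMIs (2.36 to 3.17) for each D-type cyclin UMI in QSC fibre-poor barcodes and 0.661 (0.621 to 0.704) in ASC fibre-poor barcodes. This balance lies within each library and does not depend on scaling between libraries. It leaves out Cdkn1c, which is not among the 9 genes. Cdkn1c alone had 77 UMIs in QSC and 5942 in ASC fibre-poor barcodes, against 669 and 1633 for the 3 summed inhibitors. The lower ASC balance therefore describes those 3 genes only and not CDK inhibitors as a whole. The median of the 4714 genes with at least 20 UMIs on both sides was -0.27 (log2), and against that median Ccnd1 was at 2.02, Cdk6 at 2.94, Cdkn1a at -1.01 and Cdkn1b at -2.25. Ccnd3 stood at 0.25 on that scale, so its sign depends on the scaling. With scaling by TMM, which adds 0.31 to each ratio, Cdkn1a had -0.97 and was no longer called. Under the 1% mitochondrial limit named in the methods of the study, 1 QSC fibre-poor barcode with 5070 UMIs remained and none of the 9 genes was called in this comparison.

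**Figure D1:**
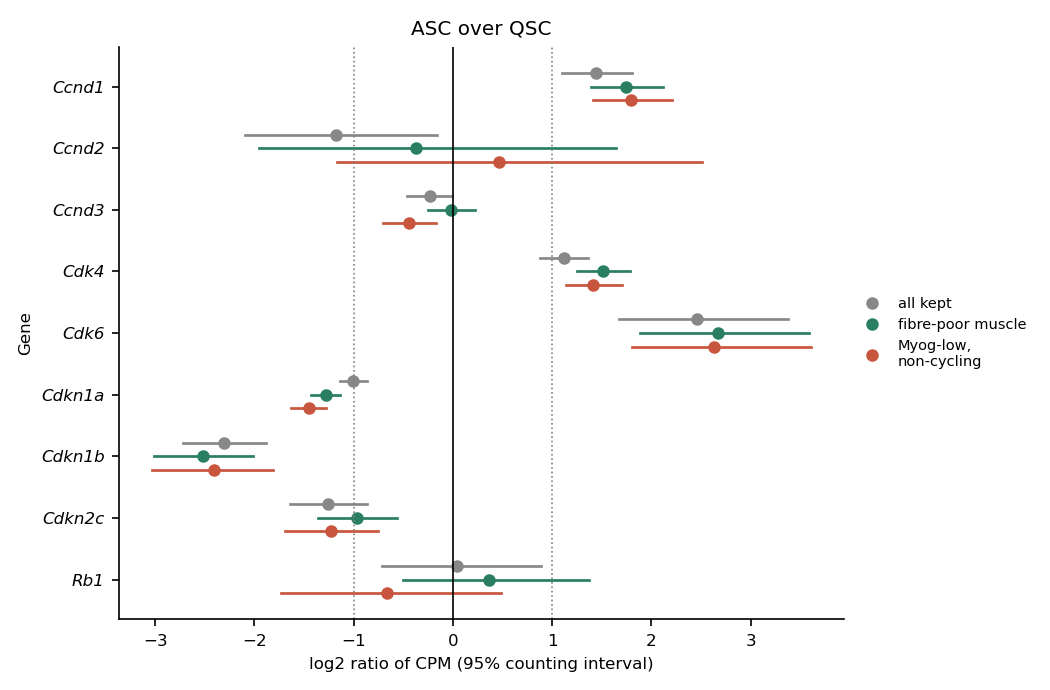
Log2 ratio of CPM, ASC over QSC, for each of the 9 genes, with exact 95% counting intervals as horizontal lines and 2-fold marks as dotted lines. Grey points are all kept barcodes, green points fibre-poor muscle barcodes and red points Myog-low non-cycling barcodes. The last include 54 ASC barcodes with 0.15% to 0.3% of UMIs from cycle markers, just below the cycling limit. In all 3, Ccnd1, Cdk4 and Cdk6 lie to the right of the upper 2-fold mark, Cdkn1b lies to the left of the lower mark and Cdkn1a on it or to its left, and the interval of Rb1 crosses 0.

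Over all kept barcodes, where fibre-rich droplets make up most of the ASC library, 3 of the 9 genes were called higher and 4 lower, against 13% and 23.9% of 9467 genes. Ccnd1 had a log2 ratio of 1.44 (1.10 to 1.81), Cdk4 of 1.12 and Cdk6 of 2.46. On the other side were Cdkn1b at -2.31, Cdkn2c at -1.26, Ccnd2 at -1.18 and Cdkn1a at -1.0, the last just at the 2-fold mark. Of the 13 QSC Ccnd2 UMIs, 9 lay in the 39 non-muscle barcodes. The share of fibre-rich barcodes, 20.2% in the QSC and 65.1% in the ASC library, moved with these ratios. Without the fibre-rich and non-muscle barcodes, as given above, Cdkn2c and Ccnd2 were not called.

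The same comparison was made as a share of barcodes, each thinned to 1200 UMIs so that deep barcodes had no advantage. Ccnd1 was seen in 15.9% of 414 ASC fibre-poor barcodes (12.5 to 19.8) and in 5.41% of 370 QSC barcodes (3.33 to 8.23). For Cdk4 the shares were 30.7% in ASC and 14.1% in QSC barcodes, and for Cdk6 they were 6.76% and 1.62%. Cdkn1a went the other way, with 23.4% of ASC barcodes (19.4 to 27.8) and 39.5% of QSC barcodes (34.4 to 44.6), as did Cdkn1b, with 3.38% and 10.3%. The intervals of these 5 genes were apart between the libraries, and those of the other 4 overlapped. Barcodes of 1 library are not replicates, so these intervals cover counting error only and give no test between the groups. Without thinning, 51.6% of ASC and 11.8% of QSC barcodes held a Ccnd1 UMI, and 67.1% and 57.6% a Cdkn1a UMI, so that the direction for Cdkn1a was opposite. Transcripts free in the suspension can reach any droplet, and no class was known to lack these genes, so the shares in other classes are given as they stand. Among 869 fibre-rich ASC barcodes thinned to the same depth (median before thinning 2898 UMIs, against 8360 in ASC and 2225 in QSC fibre-poor barcodes), 1.04% held Ccnd1, 0.690% Cdk6, 1.38% Cdkn1b, 9.09% Cdk4 and 17.0% Cdkn1a. In 88 non-muscle ASC barcodes the shares were 2.27% for Ccnd1, 1.14% for Cdk6 and Cdkn1b, 7.95% for Cdk4 and 50% for Cdkn1a. In the QSC library, 39.3% of 28 non-muscle and 5.56% of 90 fibre-rich barcodes held Cdkn1a, and 10.7% and 4.44% held Cdkn1b, so the QSC shares of both genes in fibre-poor barcodes were close to those in non-muscle barcodes. The shares of Ccnd2 (0.270% and 0.483%) and Rb1 (1.89% and 1.45%) in QSC and ASC fibre-poor barcodes were too low to compare at this depth.

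**Figure D2:**
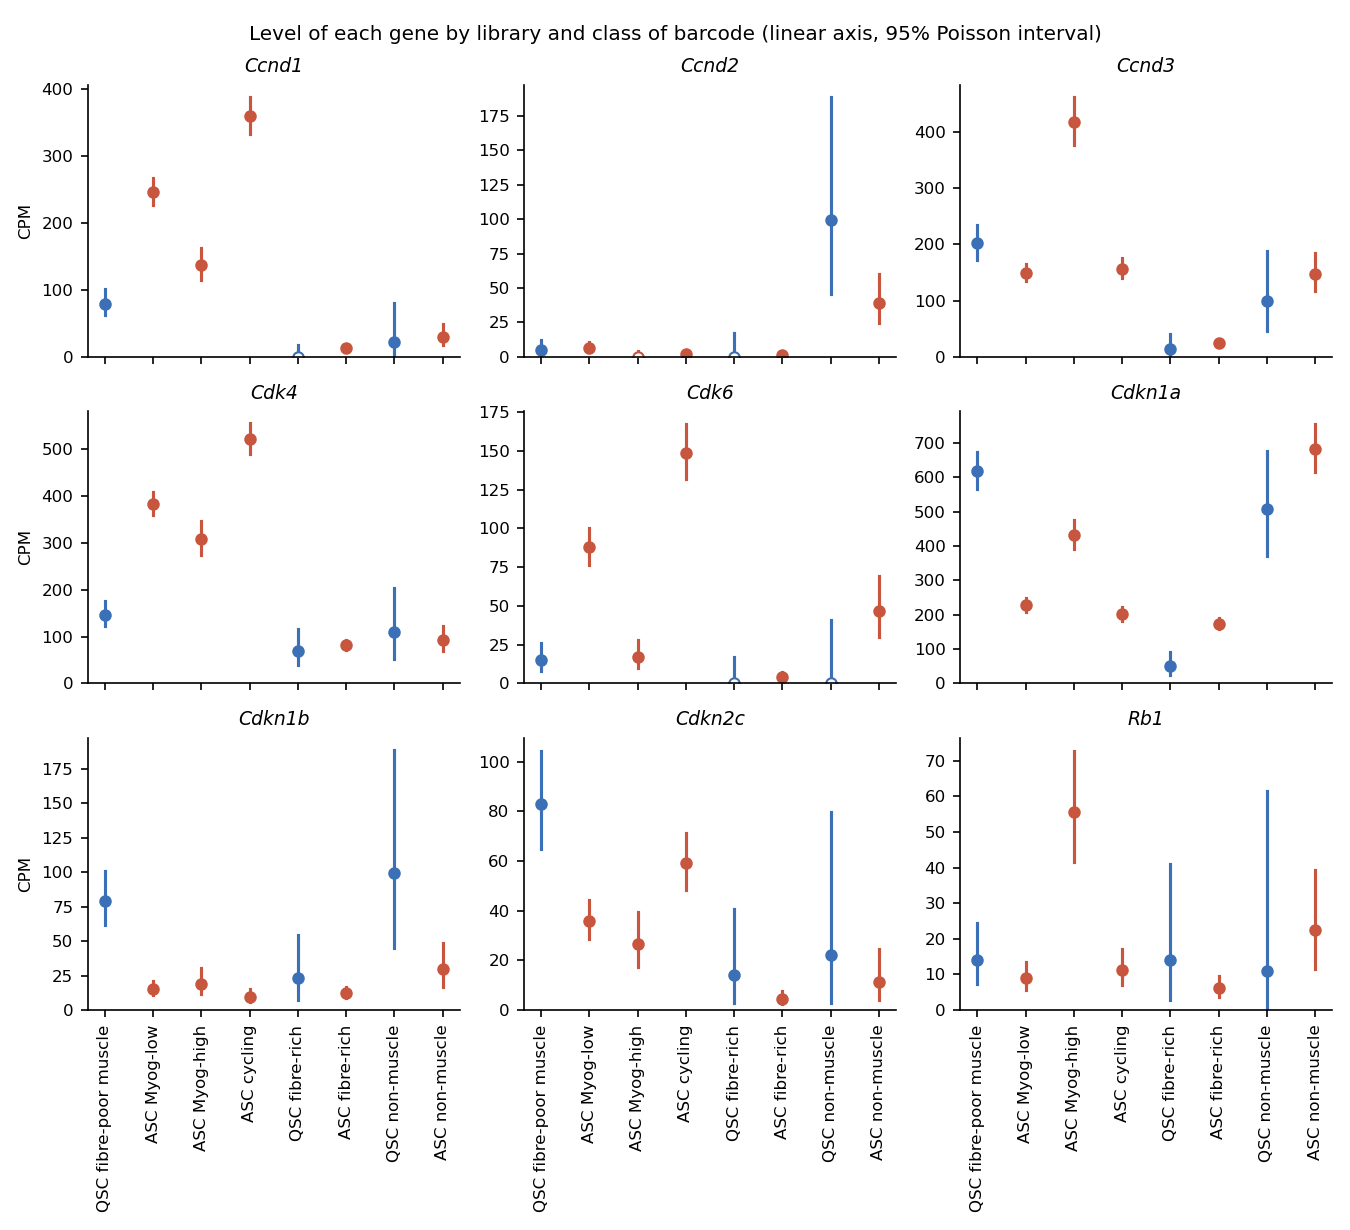
Level of each of the 9 genes in CPM (linear axis from 0) in 8 classes of barcode, blue for QSC and red for ASC, with exact 95% Poisson intervals and open points for 0 UMIs. Ccnd3 and Rb1 are highest in ASC Myog-high barcodes, Ccnd1, Cdk4 and Cdk6 in ASC cycling barcodes, and Cdkn1a in ASC non-muscle and QSC fibre-poor barcodes.

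How the genes differ between ASC barcodes with and without Myog was asked next. Myog-high barcodes had 2.80-fold more Ccnd3 and 6.19-fold more Rb1 than Myog-low barcodes, and less Cdk6 (0.194-fold). Cdkn1a was 1.89-fold higher, short of the 2-fold mark, and Ccnd1 was lower. Of the 9 genes, 2 were called higher and 2 lower, against 6.98% and 7.34% of 8602 genes. Ccnd2, which is 1 of those called lower, is below the 5 CPM mean of the background genes.

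Ccnd3 had 418 CPM (378 to 462; 392 UMIs in 72 of 78 barcodes) in Myog-high and 149 CPM (134 to 165; 366 UMIs in 140 of 261 barcodes) in Myog-low barcodes, a log2 ratio of 1.49 (1.28 to 1.70). The Myog-high level also lay above the QSC level of 202 CPM. Rb1 had 55.5 CPM (52 UMIs) and 8.97 CPM (22 UMIs, 5.62 to 13.6), a log2 ratio of 2.63 (1.88 to 3.42), and its Myog-high level was the highest of the 8 classes. The Myog-low level overlapped that of fibre-rich ASC barcodes (6.11 CPM, 3.68 to 9.55) and so could not be told apart from it. Cdkn1a had 431 CPM and 228 CPM, a log2 ratio of 0.92 (0.73 to 1.11), and remained below the QSC level of 618 CPM even in Myog-high barcodes.

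Cdk6 had 17.1 CPM (16 UMIs) in Myog-high against 88 CPM (216 UMIs) in Myog-low barcodes, a log2 ratio of -2.37 (-3.20 to -1.63). The Myog-high (9.76 to 27.7) and QSC (8.08 to 25.9) intervals of Cdk6 overlapped. Ccnd1 had 137 and 246 CPM, a log2 ratio of -0.85 (-1.14 to -0.57). Most Myog-high Ccnd1 came from few droplets, since 5 of the 78 barcodes held 56.2% of its 128 UMIs. Ccnd2 had no UMI in Myog-high barcodes and 16 in Myog-low barcodes, at least 2-fold lower when 0 is set to 3 counts over the class. Cdk4 differed little (log2 ratio -0.31, -0.51 to -0.12), and the intervals of Cdkn1b (0.35, -0.55 to 1.2) and Cdkn2c (-0.43, -1.13 to 0.23) included no change.

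The cycling limit bore on the lower genes. With cycling from 0.15% of UMIs, which takes more barcodes out of the Myog-low class, Cdk6 had a log2 ratio of -0.79 (-1.89 to 0.21) and Ccnd1 of 0.01 (-0.33 to 0.34), and Cdk6 was no longer called. Under the 1% mitochondrial limit 4 Myog-high barcodes remained and none of the 9 genes was called.

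Myog-high barcodes were deeper than Myog-low barcodes, so the comparison was repeated with barcodes of at least 5000 UMIs only, a restriction added after the values were seen. Ccnd3 then had a log2 ratio of 1.48, Rb1 of 2.56 and Cdk6 of -2.52. Cdkn1a (1.18) and Ccnd1 (-1.05) passed the 2-fold mark, and Ccnd2 was no longer called. Depth went with cycle markers among barcodes with Myog below 0.05% of UMIs. The median was 23663.5 UMIs in the 54 with 0.15% to 0.3% of cycle-marker UMIs and 4832 in the 158 below 0.05%. The restriction thus favours Myog-low barcodes near the cycling limit, and its part in these values was not tested. After thinning to 5000 UMIs, Ccnd3 was seen in 88.4% of 69 Myog-high barcodes (78.4 to 94.9) and in 52.0% of 148 Myog-low barcodes (43.7 to 60.3). For Rb1 the shares were 24.6% (15.1 to 36.5) and 3.38% (1.11 to 7.71). Cdkn1a was seen in 75.4% of Myog-high and 46.6% of Myog-low barcodes. Ccnd1 had the opposite order, with 26.1% and 52.0%. Of the 69 Myog-high barcodes, 45 held Ccnd3 without Ccnd1, 16 held both and 2 held Ccnd1 alone. Of the 148 Myog-low barcodes, 36 held Ccnd3 alone, 36 Ccnd1 alone and 41 both. In 136 fibre-rich ASC barcodes thinned to 5000 UMIs, 11% held Ccnd3, 2.94% Ccnd1, 1.47% Rb1 and 34.6% Cdkn1a. In 57 non-muscle ASC barcodes Ccnd3 was seen in 36.8%, Ccnd1 in 10.5%, Rb1 in 7.02% and Cdkn1a in 94.7%. The Myog-low share of Rb1 (3.38%) lay between the fibre-rich and non-muscle shares, with overlapping intervals. Median depths before thinning were 11754 UMIs in Myog-high, 9714 in Myog-low, 5980 in fibre-rich and 7205 in non-muscle barcodes.

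**Figure D3:**
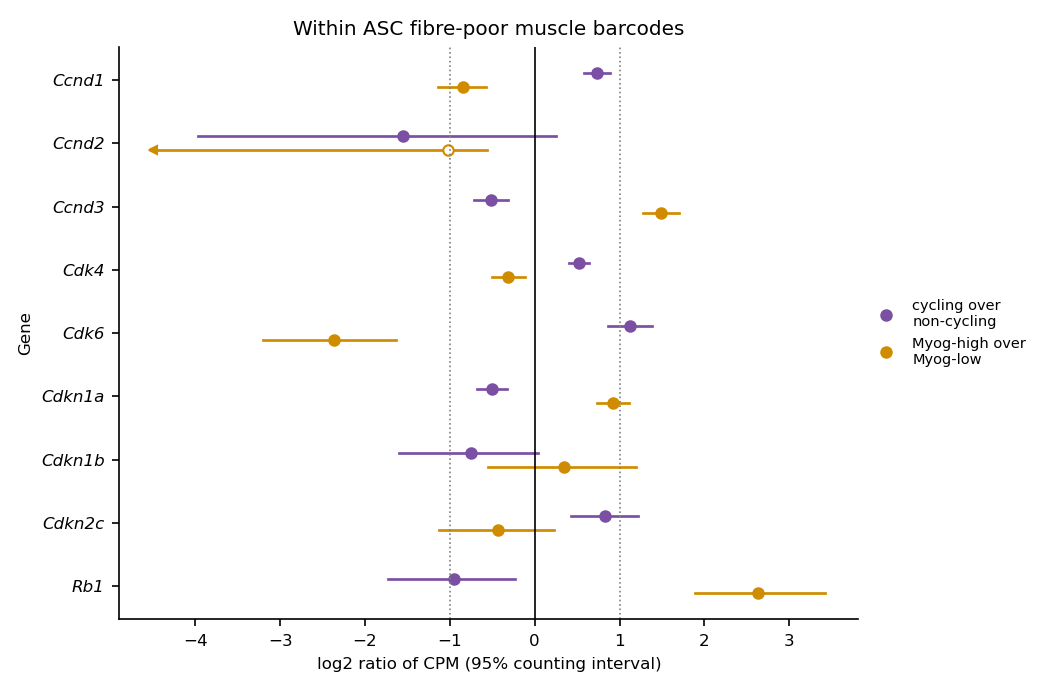
Log2 ratio of CPM within ASC fibre-poor muscle barcodes, purple for cycling over non-cycling and orange for Myog-high over Myog-low, with exact 95% counting intervals and dotted 2-fold marks. The open point with an arrow is a bound, because Ccnd2 had 0 UMIs in Myog-high barcodes. The Myog-high barcodes are also part of the non-cycling side of the purple points. Ccnd3 and Rb1 lie past the upper 2-fold mark in orange and only Cdk6 does so in purple.

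Cycling barcodes were compared with all other ASC fibre-poor barcodes to ask which of the genes go with replication and mitosis genes. Only Cdk6 was called, at 149 against 68.4 CPM (log2 ratio 1.12, 0.86 to 1.38). None of the 9 was called lower, against 6.14% of 8669 genes called higher and 7.54% called lower. Ccnd1 (359 and 216 CPM, log2 ratio 0.73), Cdk4 (522 and 363 CPM, 0.52) and Cdkn2c (59.1 and 33.3 CPM, 0.83) had intervals above no change. Ccnd3 (157 and 224 CPM, -0.51), Cdkn1a (201 and 284 CPM, -0.50) and Rb1 (11.3 and 21.8 CPM, -0.95) had intervals below it. The non-cycling side includes the Myog-high barcodes. In Myog-low barcodes alone Ccnd3 stood at 149 CPM and Rb1 at 8.97 CPM, so the cycling levels of these genes were not below them. Cdkn1a stood at 228 CPM there, still above its cycling level. The comparison depended on where the cycling limit was set. Cdk6 had a log2 ratio of 2.94 with a limit of 0.15% of UMIs, of -1.34 with a limit of 0.6%, which left 12 barcodes, and of 0.98 among barcodes of at least 5000 UMIs, where it was no longer called.

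Barcodes with Myog below 0.05% of UMIs were therefore divided by the share of cycle-marker UMIs, a division made after the values were seen. Cdk6 stood at 17.3 CPM in the 158 barcodes below 0.05%, at 40.2 CPM in the 48 barcodes up to 0.15%, and at 161 CPM (138 to 185) and 164 CPM (145 to 185) in the 54 and 66 barcodes up to 0.3% and 0.6%. In the 10 barcodes with the highest shares it was 40.0 CPM (7 UMIs, 16.1 to 82.5). Ccnd1 stood at 110, 212, 365, 383 and 240 CPM in the same 5 ranges, with its lowest level in the first. There Ccnd1 (89.7 to 134) was above its QSC fibre-poor level of 79.4 CPM. Cdk6 (9.86 to 28) was near its QSC fibre-poor level of 15.2 CPM. Both intervals overlapped those of QSC fibre-poor barcodes, which does not show equal levels, and no ratio was computed.

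Cdk4 had 208 CPM in the lowest range, 388 CPM in the next, and 524, 512 and 595 CPM in the others. Cdkn1a was highest in the lowest range, with 336 CPM (300 to 376), 220 CPM and 143 CPM (122 to 167), and then 189 and 229 CPM. Cdkn2c was at 49.6, 42.9, 22.6 and 41.7 CPM and then at 206 CPM (144 to 285; 36 UMIs) in the 10 barcodes with the highest shares. Ccnd3 also had its highest level there, with 269 CPM (198 to 358) against 132 to 190 CPM in the other ranges. In those 10 barcodes the 16 mitosis genes among the markers (3999 CPM) exceeded the 12 replication genes (3547 CPM), whereas in the 0.3% to 0.6% range they were at 1552 and 2320 CPM. The median depth moved with the ranges, from 4832 UMIs in the lowest to 26884 in the 0.3% to 0.6% range and 14982 in the highest, and its part in these levels was not tested. Doublets were not removed.

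**Figure D4:**
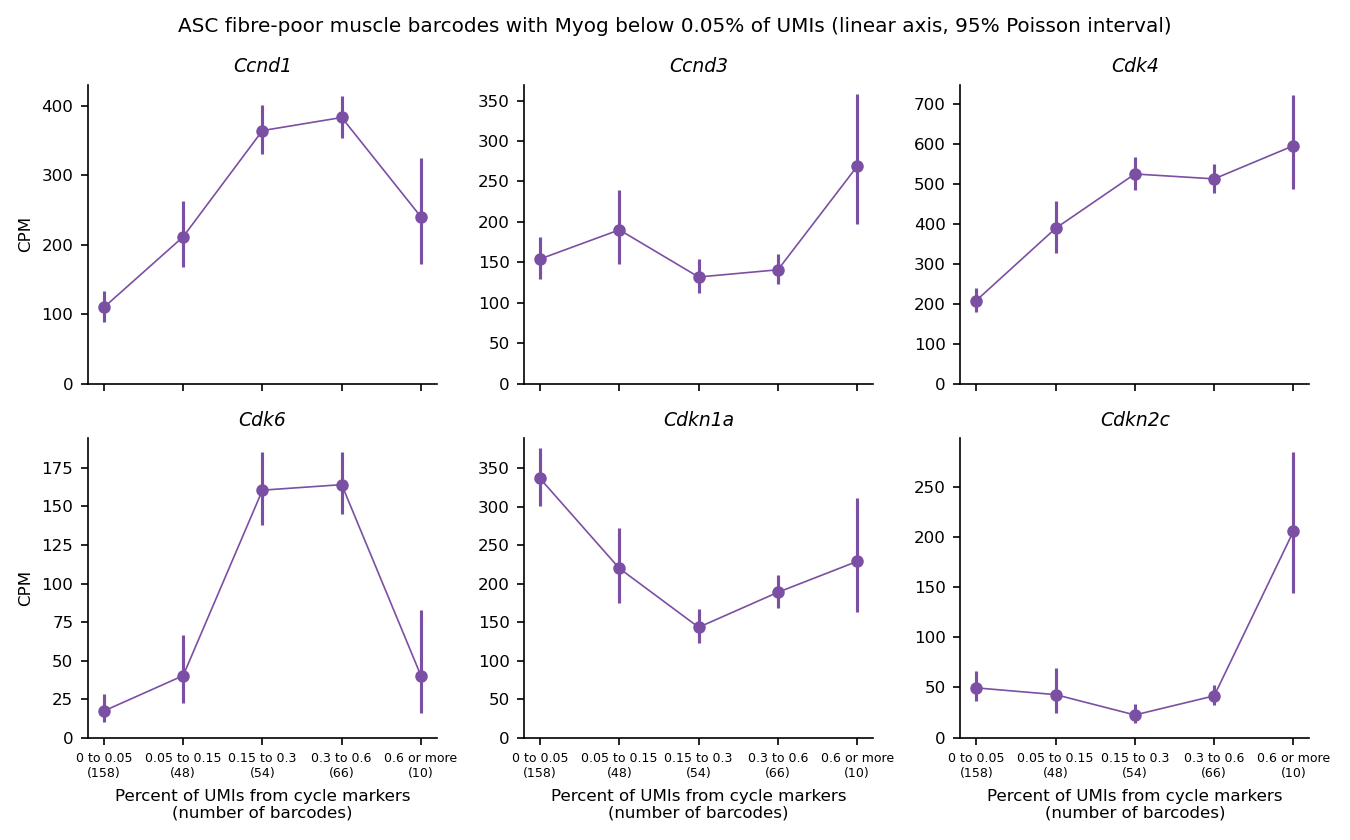
Level in CPM (linear axis from 0) of 6 of the 9 genes in ASC fibre-poor muscle barcodes with Myog below 0.05% of UMIs, by the percent of UMIs from 28 cycle markers, with exact 95% Poisson intervals and the number of barcodes in parentheses. Ccnd1 and Cdk6 are highest between 0.15% and 0.6%, Cdkn1a is lowest between 0.15% and 0.3%, and Cdkn2c reaches 206 CPM in the 10 barcodes at 0.6% or more.

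Which D-type cyclin gave most of the UMIs differed between the classes. Ccnd3 gave 70.6% (64.5 to 76.2) of the 245 D-type cyclin UMIs of QSC fibre-poor barcodes and Ccnd1 gave 27.8% (22.2 to 33.8). In the ASC library, Ccnd1 gave 56.7% (54.7 to 58.7) of 2470 UMIs and Ccnd3 42.5%. Within the ASC library the share of Ccnd1 was 61.3% (58.1 to 64.3) in Myog-low and 69.4% (66.4 to 72.3) in cycling barcodes, but 24.6% (21 to 28.6) in Myog-high barcodes, where Ccnd3 gave 75.4%. The majority of Ccnd1 in Myog-low barcodes came from those near the cycling limit: Ccnd1 gave 73.2% (69.3 to 76.8) of 574 UMIs in the 54 barcodes between 0.15% and 0.3% of cycle-marker UMIs, but 44.3% (39.4 to 49.2) of 409 UMIs in the 206 barcodes below 0.15%, where Ccnd3 had 214 UMIs and Ccnd1 181. The shares in Myog-high ASC and in QSC barcodes had overlapping intervals. Ccnd2 was below 2% in all of these classes and reached 18.1% (11.6 to 26.3) of 116 UMIs in ASC non-muscle barcodes. These shares lie within a library and do not depend on scaling. The QSC share of Ccnd1 was 34.9% with at least 1000 genes per barcode.

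**Figure D5:**
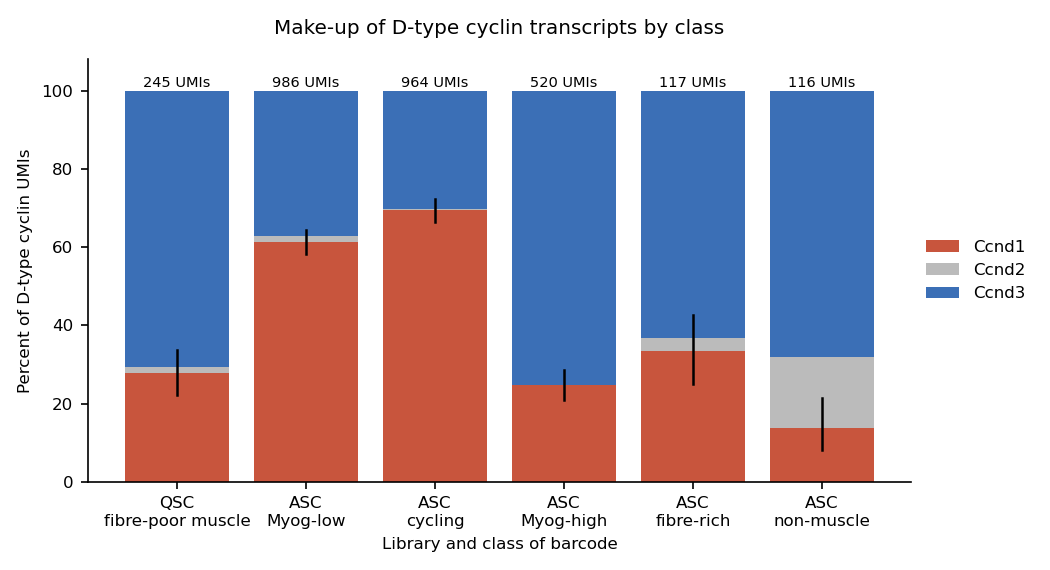
Percent of D-type cyclin UMIs from Ccnd1 (red), Ccnd2 (grey) and Ccnd3 (blue) in 6 classes of barcode, with the exact 95% binomial interval of the Ccnd1 share as a black line and the number of UMIs above each bar. The Ccnd1 share is 27.8% in QSC fibre-poor muscle, 61.3% and 69.4% in ASC Myog-low and cycling, and 24.6% in ASC Myog-high barcodes. Below 0.15% of cycle-marker UMIs, a range not drawn, it was 44.3%.

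The balance of the same 3 inhibitors to D-type cyclins in the 3 fibre-poor ASC classes was 0.521 (0.467 to 0.581) in cycling, 0.694 (0.628 to 0.766) in Myog-low and 0.860 (0.756 to 0.977) in Myog-high barcodes, all below the QSC fibre-poor value of 2.73. Cdkn1c is not in this sum. In Myog-high barcodes it alone had 5525 UMIs, against 447 for the 3 inhibitors and 520 for the D-type cyclins, so the Myog-high value describes those 3 genes only. Within the ranges of cycle-marker share the balance was 1.49 (1.27 to 1.76) in the 158 barcodes below 0.05%, 0.667 (0.515 to 0.860) in the next range and 0.352 (0.298 to 0.414) in the 54 barcodes between 0.15% and 0.3%, so the Myog-low value averages over a wide spread. In ASC fibre-rich and non-muscle barcodes it was 5.07 (4.15 to 6.23) and 3.34 (2.70 to 4.14), above the QSC fibre-poor value, whose interval (2.36 to 3.17) overlapped that of the non-muscle but not of the fibre-rich barcodes. The ratio of Cdk6 to Cdk4 UMIs was 0.285 in cycling, 0.229 in Myog-low and 0.0552 (0.0311 to 0.0911) in Myog-high barcodes. Cdkn1a outnumbered Cdkn1b in both libraries, 7.79-fold (6.05 to 10.2) in QSC and 18.3-fold (14.5 to 23.5) in ASC fibre-poor barcodes.

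Outside the fibre-poor class, the genes differed by class. In fibre-rich ASC barcodes Ccnd1 had 12.6 CPM, Ccnd3 23.8 CPM and Cdk6 4.18 CPM, against 267, 200 and 96.9 CPM in fibre-poor ASC barcodes. Cdk4 had 81.4 CPM in ASC and 69.9 CPM in QSC fibre-rich barcodes. Cdkn1a had 174 CPM (541 UMIs) in ASC and 51.3 CPM (11 UMIs) in QSC fibre-rich barcodes, a log2 ratio of 1.76 (0.91 to 2.77) opposite in sign to that of fibre-poor barcodes. It was the only 1 of the 9 called higher there and none was called lower, against 7.51% and 6.1% of 6804 genes. In non-muscle barcodes, where the cell types differed between the libraries (all 5 stromal markers were detected in QSC and were at 0 in ASC barcodes), Cdkn1a stood at 507 and 683 CPM, Ccnd3 at 99.3 and 148 CPM and Cdk4 at 110 and 93.5 CPM. There Ccnd2 (99.3 and 39.3 CPM) and Cdkn1b (99.3 and 29.9 CPM) were called lower in the ASC library on 9 QSC UMIs each. In both libraries Ccnd2 was higher in non-muscle than in fibre-poor barcodes (4.67 and 3.62 CPM). None of the 9 genes was called higher in non-muscle ASC barcodes, where 12.3% of 9978 genes were called lower and 5.11% higher.

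Other genes of the same pathway were followed as a list of 30. In fibre-poor barcodes 12 of the 25 genes with a mean of at least 5 CPM were called higher in the ASC library, 5 lower and 8 neither, beside 15.2% and 23.4% of all genes tested, with a median log2 ratio of 0.92 beside -0.15 for all genes tested. Cdk2 itself and the 4 genes of its cyclins and activator (Ccne1, Ccne2, Ccna2 and Cdc25a) were called higher, and in Myog-low barcodes alone 3 of these 5 were. Among them Ccna2, which encodes the S-phase cyclin A2, had no UMI in QSC and 429 in ASC barcodes, at least 23.3-fold higher with 0 set to 3 counts over the class. Ccne2, a cyclin E gene, had 2 and 126 UMIs (log2 ratio 3.36, 1.48 to 6.42). Of the 9 tested genes of E2F factors, their partners and relatives of Rb1, 4 were called higher, 3 lower and 2 neither. Among the higher were E2f1 (1 and 198 UMIs, log2 ratio 5.01, 2.52 to 10.3) and E2f2 (3 and 120 UMIs, 2.71, 1.12 to 5.0). E2f3 was not called (9 and 62 UMIs, 0.17, -0.85 to 1.36). Rbl2 (-2.09), Tfdp2 (-2.12) and E2f5 (-1.47) were called lower, as was the inhibitor gene Cdkn2d (131 and 42.4 CPM, -1.62). Called higher were also Skp2, which marks p27 for degradation (2 and 106 UMIs, 3.11, 1.22 to 6.18), and its cofactor gene Cks1b (26.8 and 184 CPM). Of the p53 gene and its targets 1 of 6 was called, Btg2, an antiproliferative gene, which was lower (1433 and 205 CPM, log2 ratio -2.81). Trp53 itself had 0.92 (0.58 to 1.27).

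In Myog-high against Myog-low barcodes, 1 of 24 list genes was called higher and 2 lower, beside 6.98% and 7.34% of all genes, so these counts are near the background. In cycling against other ASC barcodes 11 of 26 were called higher and 2 lower, beside 6.14% and 7.54%. The 1 called higher with Myog was Cdkn1c, which encodes p57, with 5896 CPM in Myog-high and 46.9 CPM in Myog-low barcodes (log2 ratio 6.97, 6.71 to 7.25). In cycling barcodes it was lower than in all non-cycling barcodes (162 against 1663 CPM). Of the 5640 non-cycling UMIs, 5525 lay in Myog-high barcodes. Against Myog-low barcodes alone (46.9 CPM) the cycling level was higher. Between the libraries its ratio was 3.65, with 49 of the 77 QSC UMIs in the single Myog-high QSC barcode, and in Myog-low barcodes alone it was 0.50 (-0.10 to 1.16). In Myog-low barcodes alone, some of them close to the cycling limit, 8 of the 25 list genes were called higher and 5 lower between the libraries, beside 12.5% and 22.2%. Cdkn2a, which encodes p16 and p19ARF from shared exons that these counts cannot separate, had 1 UMI in QSC and 40 in ASC fibre-poor barcodes (log2 ratio 2.71, 0.15 to 8.05) and a mean below 5 CPM.

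Genes with the most similar pattern were sought over 8 classes, namely QSC fibre-poor, fibre-rich and non-muscle barcodes and ASC Myog-low, Myog-high, cycling, fibre-rich and non-muscle barcodes, among 5177 genes with a mean of at least 20 CPM, by Pearson's r of log2(CPM + 10), as a description with no test, since the classes share 2 libraries and differ in depth. Ccnd1 was closest to Phgdh (r = 0.986), the first enzyme of serine synthesis, and Cdk4 to Cct7 (0.992), a subunit of a chaperonin. Cdk6 was closest to Aatf (0.982), followed by Rrm2 (0.972) and Mcm3 (0.969), which are among the cycle markers that set the classes. Ccnd3 was closest to Stx16 (0.991), Cdkn1a to Rbm42 (0.978), Cdkn1b to Grip2 (0.984), Cdkn2c to Cetn3 (0.963) and Rb1 to Map7d1 (0.916). Among the 9 genes themselves the highest value was 0.964, between Ccnd1 and Cdk4.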

How the data were processed

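Sorted satellite cells were profiled with droplet-based 3' single-cell chemistry, 1 library per group. The deposited count of each gene in each barcode is a whole number of UMIs that the authors made with Cell Ranger (6.0.2 per the file headers, 7.1.0 per the submitters' processing notes, which also name mm10). The annotation and the handling of strand are not given in the sources used here. Intervals cover counting error only.

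From these counts, barcodes with at least 500 genes and at most 10% mitochondrial UMIs were classed by marker shares, UMIs were summed per class and scaled to CPM. Intervals at 95% were exact Poisson for levels, conditional binomial for ratios and Clopper-Pearson for shares. For bounds, 0 UMIs were replaced by 3, and no ratio was given where both counts were at most 3. Doublets were not removed. TMM came from edgeR 4.0.16 in R 4.3.3, the rest from scipy 1.17.1 in Python 3.11.15. Ratio intervals were tested on simulated Poisson counts, the model they assume. That simulation leaves out the clumping of UMIs in single barcodes, so it does not show their coverage in these data.

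The 9 genes, the 30 pathway genes and the markers were chosen with earlier results of these data known. All 9 genes are named. From the 30, the named genes are, per group, the 2 with the largest absolute log2 ratio in fibre-poor barcodes among those with at least 20 UMIs, and Cdkn1c. Also named are Cdk2, Ccne1, Cdc25a, E2f3 and the other genes called lower in that comparison. Alternatives were other filters, scalings, class limits and thinning depths.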

Additional observations from a re-analysis of the deposited data

Results flagged for a closer look

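Cdkn1a had a log2 ratio, ASC over QSC, of 1.76 (0.91 to 2.77) in fibre-rich barcodes and of -1.28 (-1.43 to -1.13) in fibre-poor muscle barcodes, so the signs in the 2 classes were opposite. The fibre-rich value rests on 11 QSC UMIs in 104 barcodes and 541 ASC UMIs in 956 barcodes. With 1 library per group, the difference between the classes was not tested.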

How the results depend on the processing

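With 1 library per group no library could be left out. No paired analysis was possible because each group had 1 library and the labels carry no replicate numbers. Of the recomputed counts and shares 87 stayed within 1.5 times of, or inside the interval of, the reported value, and 39 did not. The latter follow, each as the number of the 9 genes called. Under the 1% mitochondrial limit (1 QSC fibre-poor barcode) 0 were lower over all kept barcodes, 0 higher and 0 lower in fibre-poor barcodes, 2 higher and 1 lower in cycling barcodes, and 0 and 0 in Myog-high barcodes, and Ccnd1 gave 100% of D-type cyclin UMIs in QSC (interval 39.8 to 100) and 79.6% in ASC fibre-poor barcodes. That limit also turned the log2 ratio of Cdkn1a over all kept barcodes to 2.55, and those of Ccnd1, Cdk4 and Cdk6 in fibre-poor barcodes to -0.89, -0.70 and -0.66, each of these 3 with an interval that includes no change. Over all kept barcodes, 2 were lower under a 5% mitochondrial limit, 1 with TMM, 2 centred on the median gene, and 1 higher and 2 lower with each barcode weighted equally (a call by the point ratio alone). In fibre-poor barcodes 1 was lower with TMM. In cycling barcodes, 1 was lower with TMM, 0 higher and 1 lower centred on the median gene, 3 higher and 2 lower weighted equally, 2 higher and 1 lower with fibre-rich from 2%, 1 lower with non-muscle from 2%, 2 higher and 3 lower with cycling from 0.15%, 1 lower with cycling from 0.6%, where Cdk6 turned to -1.34, and 0 higher and 1 lower among barcodes of at least 5000 UMIs. In Myog-high barcodes 1 was lower, in place of 2, under a 5% mitochondrial limit, at least 1000 genes, fibre-rich from 2%, non-muscle from 0.5%, cycling from 0.15% or Myog-high from 0.02%. The Ccnd1 share of D-type cyclin UMIs was 34.9% in QSC with at least 1000 genes, and 34.8% in QSC and 48.9% in ASC with fibre-rich from 2%. Without thinning, 6 genes had a higher and 0 a lower share of ASC barcodes, in place of 3 and 2. The causes of the changes in this paragraph, those under the 1% limit included, were not tested. Thinning to 5000 UMIs left 5 QSC barcodes and was used for ASC classes only. Depth limits the scarce genes, Ccnd2 with 4 and Rb1 with 12 QSC fibre-poor UMIs.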
